A study of Mus musculus with 8 samples.

Results

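The 10 genes described here encode parts of the machinery that unwinds and copies DNA, and were read in 8 single myocardial cells of the mouse heart tube at embryonic day 8.5 (9 somites). They were chosen by name, with earlier results of these data known, as Mcm2, Mcm3, Mcm4, Mcm5, Mcm6, Mcm7, Cdc45, Gins2, Pcna and Fen1, which is 10 of 24336 genes with a symbol on the array. The array held 11 probes for them, 2 for Mcm3 and 1 for each of the other 9. In the 4 WT cells both Sox17 alleles were floxed and Mesp1 was intact (Mesp1+/+ Sox17flox/flox). In the 4 KO cells the same floxed alleles were combined with a Mesp1Cre allele (Mesp1Cre/+ Sox17flox/flox), so that the 2 genotypes also differed in a Mesp1 allele and in Cre itself. Mesp1 is active in early mesoderm, and the deletion of Sox17, which encodes a SOX family transcription factor, was therefore not limited to the myocardium.

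The 6 proteins MCM2 to MCM7 form the ring-shaped helicase that is loaded on replication origins before S phase and opens the double helix once the cell replicates its DNA. CDC45 and the GINS complex, to which GINS2 belongs, bind the ring and turn it into the active helicase of the fork. PCNA is the sliding clamp that holds DNA polymerases on their template, and FEN1 is the nuclease that trims the flaps between the Okazaki fragments of the lagging strand. Transcripts of these genes are known to be most abundant around the start of S phase, and myocardial cells of the early heart tube divide while they contract.

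Each array held the amplified cDNA of a single cell, and no embryo or litter was named for any cell. Each genotype was therefore 1 sample of 4 cells, no test was made, and an SD given below is the spread between cells. A gene was counted as 5-fold lower or higher when the KO mean of its log2 scaled signal lay at least 2.32 from the WT mean. Signals are in arbitrary units, and values under 50 were set to this floor. Detection of a gene means that its probe was well above background in that cell. The 4 WT arrays lay on 1 slide and the 4 KO arrays on another, so that the effects of slide and genotype cannot be told apart. Between 21.6% and 30.6% of genes were detected per WT cell and between 18.8% and 27.2% per KO cell, and the number of arrays limits the precision of every value. All 10 myocardial markers, among them Tnnt2, Myh6 and Nkx2-5, were detected in all 8 cells. Their mean log2 signal spanned 14.0 to 15.2 among WT and 15.2 to 15.8 among KO cells. Of 12 endothelial markers 2 to 4 were detected per cell, at a mean log2 signal of 5.93 to 6.48 in WT and 5.92 to 6.42 in KO cells, with 6 of the 12 (Pecam1, Kdr, Tie1, Egfl7, Plvap and Etv2) detected in some cell, 2 in all 8, and the other 6, Cdh5, Tek and Nfatc1 among them, in 0. Of 6 endoderm markers 2 (Foxa2 and Ttr), of 5 proepicardial markers 3 (Wt1, Tcf21 and Aldh1a2) and of 4 neural crest markers 1 (Sox10) were detected in some but not all cells. Of 7 erythroid markers 0 were detected. The 2 probes of Sox17 were detected in 0 of 8 cells, so they offered no check of the genotype.

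All 10 genes were lower in KO or without a difference. The KO mean was lower for 9 of them and equal for Cdc45, whose probe was detected in 0 of 8 cells. Of the 12660 genes detected in at least 1 cell 42.6% were lower and 31.1% higher in KO by any amount. The median difference over the 10 genes was -1.04 on the log2 scale, beside a median of 0 over those genes. Mcm3 and Fen1 were at least 5-fold lower in KO, and 0 of the 10 genes were 5-fold higher. Among all genes detected in at least 1 cell, 6.13% passed the same rule as lower and 1.62% as higher. Detection in at least 4 cells was met by 8 of the 10 genes, Gins2 and Cdc45 being the exceptions, and of all genes that met it 10.1% were 5-fold lower and 2.66% higher. These shares were larger among bright genes. Of the 2229 genes whose brightest cell lay in the range of these genes (3449.5 to 14803.1, a range chosen after the values were seen), 19.2% were 5-fold lower and 6.19% higher, and their median difference was -0.38.

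**Figure D1:**
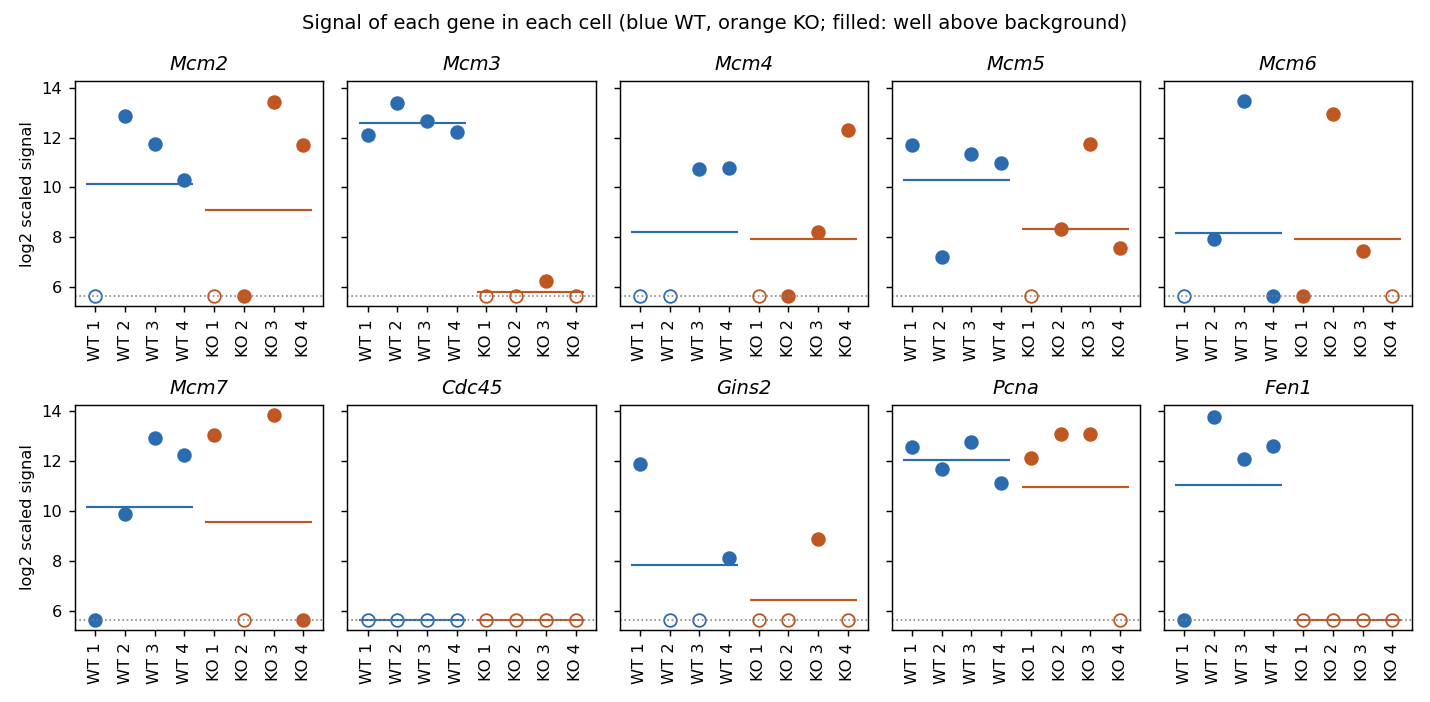
Log2 scaled signal (vertical axis) of the 10 genes in each of the 4 WT cells (blue) and 4 KO cells (orange). Filled points were well above background and open points were not, short lines are the means of the 4 cells, and the dotted line is the floor of 50. The 4 WT cells lie above the 4 KO cells for Mcm3, and in every other gene the cells of both genotypes share the floor or overlap above it.

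Mcm3 was at least 5-fold lower in KO by both of its probes. Its brighter probe read 4407.5, 10802.0, 6537.4 and 4761.2 in WT cells 1 to 4. The same probe was at the floor in KO cells 1, 2 and 4 and read 76.4 in KO cell 3. All 4 WT cells thus lay above all 4 KO cells, a separation that 2.03% of all genes detected in at least 4 cells showed. Averaged over the 4 cells of a genotype with the SD, the log2 signal came to 12.6 ± 0.59 for WT and 5.80 ± 0.31 for KO, which differ by -6.80. The dimmer probe read 2893.4 to 6976.6 in the WT cells, was at the floor in KO cells 1, 2 and 4, and read 114.9 in KO cell 3, with a difference of -6.04. Both probes were among those that the study listed as lower on these same arrays, so the direction is no independent evidence.

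The probes of Mcm3 lie at chr1:20793136-20793195 and chr1:20793119-20793178 (mouse build mm9), and exon and UTR positions were not used here. They share 43 of their 60 bases, so that the pair of readings is in large part a repeated reading of the same stretch. Part of the shared stretch is shown here because it carries the only substitution within the 43 bases, A14G. Positions are counted from the first printed base, and the capital marks the substitution.
Mcm3, RefSeq probe: aagctttctttgcAattagactagtatgta
Mcm3, cDNA clone probe: aagctttctttgcGattagactagtatgta

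Fen1 followed the same division between the genotypes with 1 exception. Its probe (chr19:10273675-10273734, mm9) read 13967.0, 4407.2 and 6188.1 in WT cells 2, 3 and 4, and in WT cell 1 it was well above background but at the floor. It was not well above background in any of the 4 KO cells, where all values were at the floor. The log2 signal averaged 11.03 ± 3.66 over the 4 WT cells (SD), with WT cell 1 counted at the floor. Since KO was not detected, the difference of -5.38, or 41.8-fold, was taken against the floor of 50. Over the alternatives tried it ranged from -9.00 (no floor) to -4.47 (without WT cell 2), so 41.8-fold is no lower bound. The first 30 of its 60 bases are printed because this probe alone stands for the gene, with no part marked.
Fen1: ggcaatcaattgaattgaggttttgggaga

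The 5 remaining helicase subunits overlapped between the genotypes. Mcm2 was undetected in WT cell 1 and read 7399.7, 3408.0 and 1268.9 in WT cells 2 to 4. In KO it was undetected in cell 1, detected at the floor in cell 2, and read 10899.6 and 3296.5 in cells 3 and 4. The brightest Mcm2 value of all cells was thus a KO value, and the difference of the means was -1.04 with an SD of 3.17 in WT and 4.05 in KO cells.

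Mcm4 was undetected in WT cells 1 and 2 and read 1704.1 and 1751.6 in WT cells 3 and 4. KO cell 1 did not show it, KO cell 2 had it at the floor, and KO cells 3 and 4 read 299.1 and 4991.0. Its highest value was again in a KO cell, and the means differed by -0.25. MCM4 sits in the same ring as MCM2, and of the 15 pairs within Mcm2 to Mcm7 theirs had the highest correlation over the 8 cells (Pearson r = 0.56).

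Mcm5 read 3304.0, 149.4, 2614.1 and 2007.3 in WT cells 1 to 4. It was undetected in KO cell 1 and read 324.5, 3449.5 and 189.5 in KO cells 2 to 4. WT cell 2 fell among the KO values and KO cell 3 above all WT values, and the difference was -1.98 with an SD of 2.08 in WT and 2.55 in KO cells. Without KO cell 3 the difference was -3.125, past the 5-fold rule.

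Mcm6 was bright in a single cell of each genotype. It read 11409.4 in WT cell 3 and 7957.6 in KO cell 2, 242.6 in WT cell 2 and 173.9 in KO cell 3, and was at the floor in WT cells 1 and 4 and KO cells 1 and 4. WT cell 4 and KO cell 1 were nevertheless well above background. The genotype means were 8.17 and 7.92, a difference of -0.25 that turned to 1.52 without WT cell 3.

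Mcm7 was at the floor in WT cell 1 and read 943.6, 7885.8 and 4830.8 in WT cells 2 to 4. It read 8475.7 and 14803.1 in KO cells 1 and 3 and was at the floor in KO cells 2 and 4. The 2 highest values were KO values, and the difference of -0.63 turned to 0.67 without KO cell 2. Over Mcm2 to Mcm7 the median difference was -0.83, and without Mcm3 no subunit of the helicase passed the 5-fold rule.

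**Figure D2:**
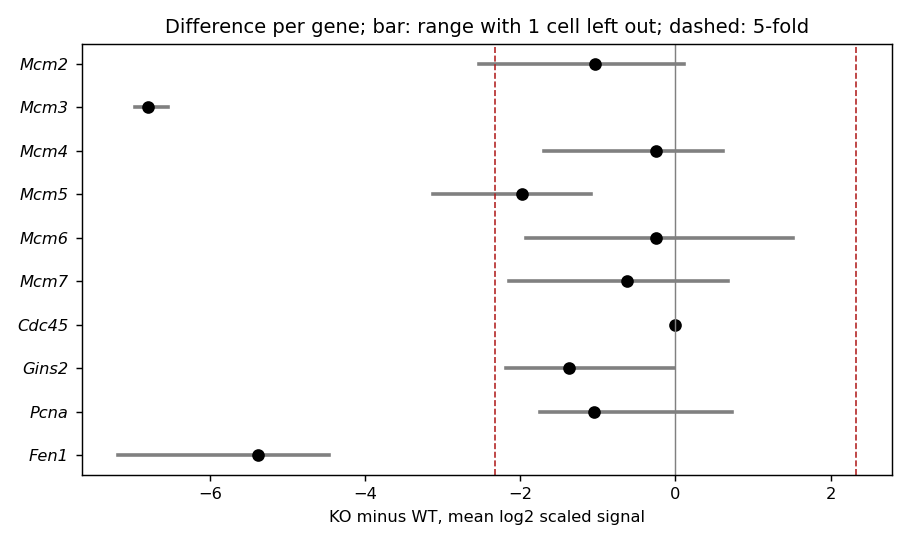
KO minus WT difference of the mean log2 scaled signal (horizontal axis) for each gene. Points are the values over all 8 cells, grey bars span the values with 1 cell left out, and dashed lines mark 5-fold. The bars of Mcm3 (-6.97 to -6.54) and Fen1 (-7.18 to -4.47) stay past the 5-fold line, and those of Mcm2, Mcm4, Mcm6, Mcm7 and Pcna reach both sides of 0.

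The helicase partners gave little signal. Gins2 read 3818.4 in WT cell 1, 276.1 in WT cell 4 and 466.2 in KO cell 3, and was undetected in the other 5 cells. WT cell 1, with the brightest Gins2, had 3 of the 6 helicase subunits detected, and the difference of -1.37 shrank to -0.02 without that cell. Cdc45 was undetected in all 8 cells, including the 3 cells in which all 6 helicase subunits were detected. The Cdc45 and Gins2 probes begin at base 663 and base 203 of their design sequences, and those of the Mcm genes at base 2228 to 3307. Those of Pcna and Fen1 begin at base 1158 and base 2109. The amplification started from the poly(A) tail, and the distance of each probe from the tail was not read. Whether the position of a probe set its detection was not tested.

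Pcna was detected in every cell except KO cell 4. It read 6096.2, 3316.8, 6900.1 and 2214.1 in WT cells 1 to 4, or 12.03 ± 0.77 as a log2 mean with the SD of the 4 cells. The values in KO cells 1 to 3 were 4482.6, 8632.5 and 8755.1, and KO cell 4 was undetected and at the floor. The 2 highest values were from KO cells, and the difference of -1.05 rested on KO cell 4, since it was 0.73 without that cell. The clamp and the flap nuclease thus differed in pattern, with Pcna detected in 3 and Fen1 in 0 of 4 KO cells.

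The readings of Pcna and Mcm7 carry an uncertainty of identity. The files place the Pcna probe at chr19:9358883-9358942 and the Mcm7 probe at chr16:53986163-53986222 (mm9), while the RefSeq table has the genes on chromosomes 2 and 5. The table also lists the pseudogene Pcna-ps2 on chromosome 19. Whether these probes read the gene, a copy of it or both was not tested, and their first 30 bases are printed here for that reason, with no part marked.
Pcna: ctgctttacaaatactggtgattttccatc
Mcm7: aggttaatacttctcggacacggatcacct

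The cells differed in how many of the 10 genes they showed. Of the 80 combinations of gene and cell 50 were detected, 30 of 40 in WT and 20 of 40 in KO cells. Signals were spread toward the extremes, with 33 over 1000, 37 at the floor and 10 between. Of the 33 bright signals 23 were in WT and 10 in KO cells. By cell number, WT cells showed 6, 7, 8 and 9 of the genes and KO cells 3, 5, 8 and 4. The averages with the SD of 4 cells were 7.5 ± 1.29 for WT and 5.0 ± 2.16 for KO. The genotypes overlapped through KO cell 3, and without it the difference of -2.5 genes grew to -3.5.

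The number of genes detected overall gave a partly different order. KO cell 3 had the lowest share of all genes detected (18.8%) but 8 of the 10 replication genes, and KO cell 1 had the highest share among KO cells (27.2%) but 3. Over the 8 cells the 2 counts correlated with Pearson r = 0.23, given as a description of points that share amplification and slide. The WT cells on average had more of both, 26.5% and 22.1% of all genes being detected in WT and KO cells, and the part of this difference in that of the 10 genes was not tested. The mean log2 signal of the 10 genes correlated with the share of all genes detected at Pearson r = 0.48 over the same cells. Among the 2229 genes of like brightness 68.3% of gene and cell combinations were detected in WT and 58.2% in KO cells, beside 83.3% and 55.6% for the 9 genes other than Cdc45.

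**Figure D3:**
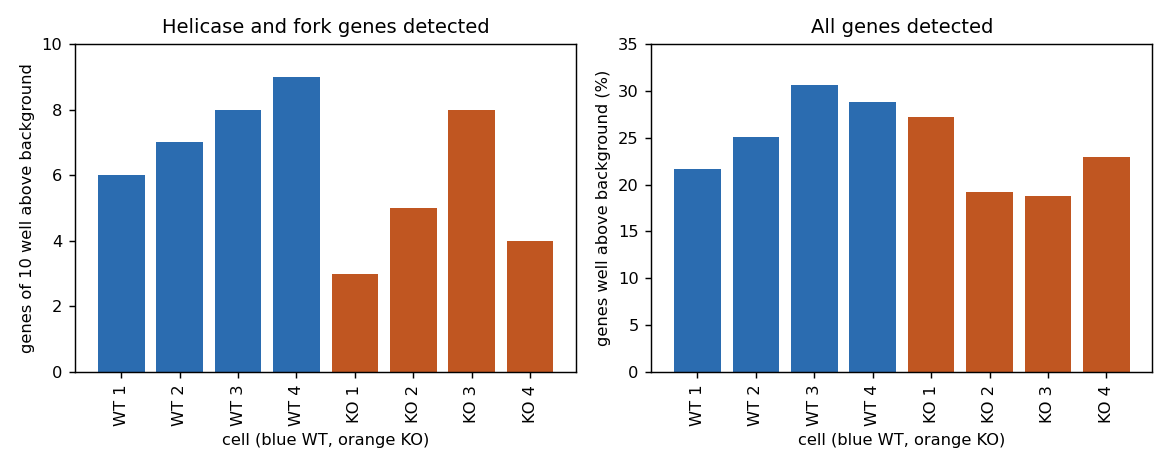
Number of the 10 genes well above background in each cell (left, vertical axis from 0 to 10) and share of all genes well above background in percent (right), for 4 WT cells (blue) and 4 KO cells (orange). KO cell 3 has 8 of the 10 genes and the lowest share of all genes, 18.8%.

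The 6 subunits of the helicase ring were all detected in WT cells 3 and 4 and in KO cell 3. In the other 5 cells 2 to 5 of them were detected, so that part of the ring's transcripts went undetected there. The 15 pairs of subunits had a median Pearson r of 0.15 over the 8 cells, from -0.03 to 0.56, with 14 above 0. The 36 pairs among the 9 genes with signal had a median of 0.18, the highest being Mcm3 with Fen1 (0.81) and the lowest Mcm4 with Pcna (-0.63). These correlations pool both genotypes and describe 8 cells with many values at the floor, and in such sparse signals weak ones carry no weight. Mcm3 and Fen1 were both 5-fold lower in KO, so their correlation includes that difference and is no separate evidence.

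KO cell 3 stood apart from the other KO cells. Averaged over the 10 genes, the log2 signals of the WT cells by number came to 8.21, 9.37, 10.9 and 9.96, and those of the KO cells to 7.03, 7.39, 9.42 and 7.10. KO cell 3 therefore lay above WT cells 1 and 2. In that cell Mcm2, Mcm5, Mcm7 and Pcna were brighter than in any WT cell, while Mcm3 read 76.4 and Fen1 was undetected. Mcm3 and Fen1 were therefore low also in the KO cell with the highest mean of the 10 genes.

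The other genes of DNA replication, 64 in 7 groups, were lower in KO for 40 and higher for 16, with a median difference of -0.62. By any amount 42.6% of all genes detected in at least 1 cell were lower and 31.1% higher. Of the 64 genes 57 were detected in at least 1 cell, 10 were 5-fold lower and 1 was 5-fold higher. Among all genes detected in at least 1 cell, 6.13% were 5-fold lower and 1.62% higher. With detection in at least 4 cells these shares were 10.1% and 2.66%. That filter was met by 28 of the 64 genes and not by Mcm10, Pole3, Pole4 and Rpa1 among the 10. The number of the 64 genes detected per cell overlapped between the genotypes, at 23 to 38 in WT and 16 to 24 in KO cells. Their mean log2 signal per cell did not, with 6.92 to 7.76 for WT and 6.37 to 6.67 for KO. How often other sets of genes separate in this way was not examined, and WT cells had more of all genes detected on average (26.5% beside 22.1%). In KO cell 3 the mean of the 64 genes was 6.64, within the range of the other KO cells, although the helicase and fork genes of that cell were high. The means of both sets of genes correlated over the 8 cells with Pearson r = 0.79. This value pools both genotypes, and both means were lower in KO, so it includes the difference between genotypes and slides.

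Licensing of an origin is the loading of the ring on it. Of 9 genes for origin recognition and licensing 6 were lower and 2 higher in KO, beside 42.6% and 31.1% of all genes detected in at least 1 cell. By the 5-fold rule, which 6.13% of all those genes passed as lower, 1 of the 9 was called. This was Gmnn, which encodes geminin, the inhibitor of the loading factor CDT1. It read 829.7, 1580.3, 1155.6 and 130.9 in the WT cells, was at the floor in KO cells 1 to 3 and read 555.3 in KO cell 4. The study had listed Gmnn as lower on these arrays. Of the 4 further genes named after MCM, Mcm10, an accessory factor of helicase activation, was read in WT cells 1 and 2 (12787.3 and 1498.5) and in 0 KO cells.

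Of 12 genes that activate the helicase or protect the fork, 4 were lower and 6 higher in KO, with 0 past the 5-fold rule. The shares of all genes detected in at least 1 cell were 42.6% lower and 31.1% higher by any amount. By the 5-fold rule they were 6.13% and 1.62%. The median difference was 0.20 over all 12 and -0.38 over the 6 detected in at least 4 cells. Gins3, a subunit of the same complex as Gins2, showed the largest difference of the group and in the opposite direction to Gins2. It was detected in all 8 cells and read 5127.5, 5329.9, 2193.2 and 1065.2 in WT and 9422.2, 7217.7, 12768.7 and 9768.0 in KO cells. All 4 KO values lay above all 4 WT values, with a difference of 1.76 on the log2 scale, short of 5-fold. Such a separation with KO above WT was found for 1.54% of all genes detected in at least 4 cells.

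Among 12 genes of the replicative polymerases and primase, 7 were lower and 2 higher. Of all genes detected in at least 1 cell, 42.6% were lower and 31.1% higher by any amount. The 5-fold shares of those genes were 6.13% lower and 1.62% higher. Pole3 and Pole4, the small histone-fold subunits of polymerase epsilon, were each read in 3 WT cells, at 377.6 to 3471.9 and 399.6 to 1001.6, and in 0 KO cells. Of the 13 genes of the clamp loader, the single-strand binding protein RPA and lagging strand processing, 7 were lower and 5 higher, beside the same shares. Rfc4 was 5-fold lower (-2.44 on the log2 scale), and Rfc3, another subunit of the clamp loader, was 5-fold higher (2.49). Rpa1, detected in 0 KO cells, was 6.34-fold lower when taken against the floor. Rfc3 was undetected in WT cells 1 and 2, read 701.0 and 267.5 in WT cells 3 and 4, and 126.8 to 2365.9 in the KO cells. Rfc4 read 1855.3, 19646.5 and 1316.1 in WT cells 1, 2 and 4 and was at the floor in WT cell 3. In KO cells 1 and 2 it read 590.4 and 1855.4, and in KO cells 3 and 4 it was at the floor. Both genes overlapped between the genotypes. By their means, subunits of the same clamp loader thus differed in direction.

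Rrm2, the regulated subunit of the ribonucleotide reductase that supplies deoxynucleotides, resembled Mcm3. It read 37799.6, 12208.2, 21302.0 and 1953.7 in the WT cells, 55.4 in KO cell 3 and was at the floor in the other KO cells. The difference was -7.84, without overlap between the genotypes, a separation that 2.03% of all genes detected in at least 4 cells showed. Rrm2 was also on the study's list of lower genes. It was the only one of the 7 nucleotide supply genes past the 5-fold rule, which 6.13% of all genes detected in at least 1 cell passed as lower. The median of the group was -0.61.

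Of 7 genes that copy chromatin with the DNA 3 were 5-fold lower in KO and the other 4 were lower by less, with a median difference of -2.11. Among all genes detected in at least 1 cell, 6.13% were 5-fold lower and 42.6% lower by any amount. With detection in at least 4 cells the 5-fold share was 10.1%. Of these 7, Asf1b and Hells were detected in a single WT cell and Chaf1a in 2. Per cell the log2 signal of the 7 genes averaged 7.14 to 9.47 for WT and 5.64 to 6.19 for KO, again without overlap. The number of them detected per cell did overlap, at 3 to 5 in WT and 1 to 3 in KO cells. Chaf1b, a subunit of the histone chaperone that PCNA recruits, read 4989.9, 6451.8 and 346.9 in WT cells 2 to 4 and was well above background but at the floor in the other 5 cells. Uhrf1, which guides maintenance methylation to new DNA, had its signal in the same 3 cells (2000.4, 4072.4 and 197.8). Nasp, a histone chaperone, was 5-fold lower as well (-3.16).

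Of 13 genes of G2 and mitosis 11 were lower, 3 of them past the 5-fold rule, with a median of -1.52. The shares among all genes detected in at least 1 cell were 42.6% lower by any amount and 6.13% 5-fold lower. With detection in at least 4 cells, which Plk1 of the 3 did not meet, 10.1% were 5-fold lower. Ccnb1 and Ccna2 encode the mitotic cyclins B1 and A2, and Plk1 a mitotic kinase. WT cell 4 carried the highest values of all 3, 7811.2, 4695.9 and 12292.6, and all 13 genes of the group were detected there. In WT cell 3, with the highest mean of the helicase and fork genes, 3 of the 13 were detected, and in KO cell 3, with the highest mean among KO cells, 2. Over the 8 cells, with both genotypes pooled, the mean of the 10 genes correlated with that of the mitotic genes with Pearson r = 0.32.

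**Figure D4:**
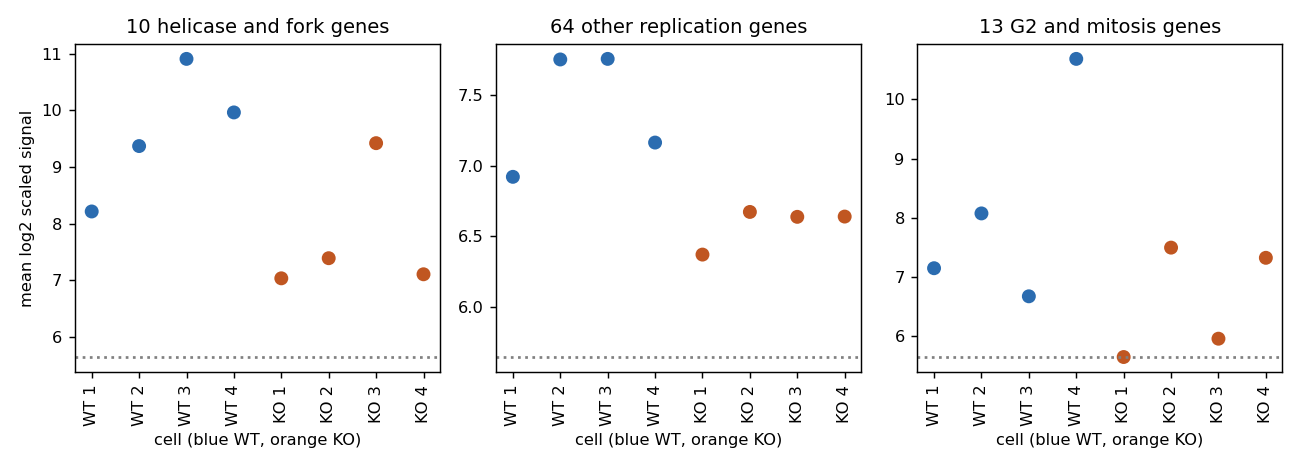
Mean log2 scaled signal in each cell of the 10 helicase and fork genes (left), 64 other replication genes (middle) and 13 G2 and mitosis genes (right), each with its own vertical axis, for 4 WT cells (blue) and 4 KO cells (orange). The dotted line is the floor. KO cell 3 stands above the other KO cells at left (9.42) and among them in the middle (6.64), and WT cell 4 is highest at right.

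**Figure D5:**
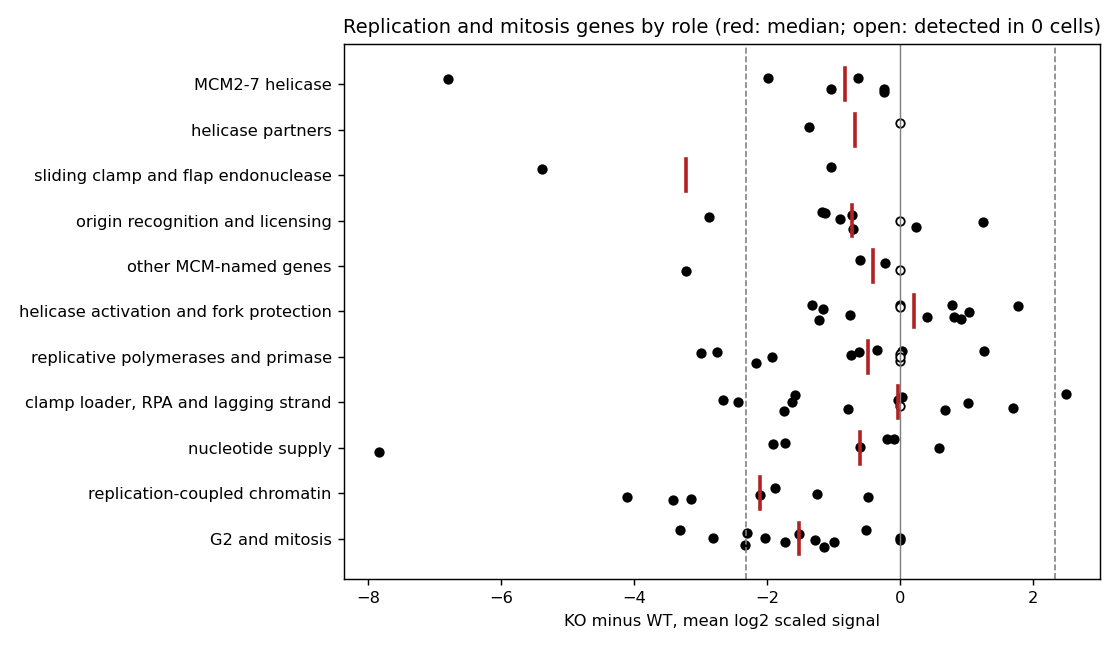
KO minus WT difference of the mean log2 scaled signal (horizontal axis) of each gene, in rows by role. Filled points are genes detected in at least 1 cell, open points genes detected in 0 cells, red bars are the medians of the rows and dashed lines mark 5-fold. The row of helicase activation and fork protection is centred near 0 (median 0.20), and that of replication-coupled chromatin lies furthest below it apart from the 2 genes of clamp and flap nuclease (median -2.11).

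Some genes outside replication had a pattern over the 8 cells close to that of the 10 genes. Of 4816 genes detected in at least 4 cells and above the floor in at least 1, the replication and mitosis lists left out, 12 correlated with their mean log2 signal at Pearson r over 0.9, and the median of all was -0.01. The 5 highest were Colgalt1, a collagen galactosyltransferase (0.96), Ewsr1, an RNA-binding protein (0.95), Smu1, a splicing factor (0.95), St13, an HSP70 cochaperone (0.94), and Lmo4, a LIM-domain transcription cofactor (0.94). Ewsr1, for example, read 505.8, 4656.0 and 3896.3 in WT cells 2 to 4, 858.5 in KO cell 3 and the floor in the others. With 8 cells and this many genes compared, the order is a description and carries no test.

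The promoters of the helicase genes were read for the sites that the cell cycle's transcription factors bind. E2F factors drive transcription at the start of S phase, and the site searched was TTTCCCGC, TTTCGCGC, TTTGCCGC or TTTGGCGC on either strand. The window ran from 250 bases before to 50 bases after each annotated start (RefSeq, GRCm38.p6), and 8 of the 10 genes, all but Mcm4 and Gins2, were matched by symbol. A site was found for Mcm3, Mcm5, Mcm6 and Mcm7, which is 4 of 8, beside 2.6% of all 27025 genes in the table. Among the other replication genes the site was found in 4 of 8 for origin recognition and licensing, 5 of 10 for polymerases and primase and 2 of 4 for the other genes named after MCM. It was found in 3 of 8 for helicase activation and fork protection, 3 of 7 for replication-coupled chromatin, 2 of 11 for the clamp loader group and 0 of 6 for nucleotide supply. Each of the 4 had at least 2 matches, which 0.107% of all genes had, and 1 gene each of the chromatin and clamp loader groups. Counting overlapping matches once left Mcm3, Mcm6 and Mcm7 with at least 2, beside 0.0999% of all genes.

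The stretches of 30 bases that hold the sites are printed on the strand of the gene with the sites in capitals, because 2 of them hold a pair of matches on opposite strands that overlap. All coordinates are GRCm38.p6. The first stretch of Mcm7 lies 165 bases upstream of the start at its site and the second downstream, and its second site overlaps a CCAAT box.
Mcm3, chr1:20820265-20820294, minus strand: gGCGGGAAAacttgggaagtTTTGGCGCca
Mcm5, chr8:75109347-75109376, plus strand: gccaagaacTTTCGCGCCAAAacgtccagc
Mcm6, chr1:128359795-128359824, minus strand: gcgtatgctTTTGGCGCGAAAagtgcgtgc
Mcm6, chr1:128359734-128359763, minus strand: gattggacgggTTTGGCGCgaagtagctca
Mcm7, chr5:138172030-138172059, minus strand: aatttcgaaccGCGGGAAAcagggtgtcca
Mcm7, chr5:138171849-138171878, minus strand: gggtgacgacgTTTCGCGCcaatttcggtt

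Mcm3 separated the genotypes completely, while Mcm5, Mcm6 and Mcm7, each with matches to the searched site, overlapped between them. The letters of the matches were not the same in all 4 genes. Fen1, past the 5-fold rule like Mcm3, had 0 matches in its windows. Whether these sites bear on the readings was not tested. The CCAAT box, the site of NF-Y, was present in 7 of the 8 genes and in 41.1% of all genes, and GGGCGG, the site of SP1, in 6 of 8 and in 38.2%. The cell cycle homology region (TTTGAA or TTCGAA), a site of G2 and mitosis genes, was found in 4 of the 8 and in 9 of 11 mitotic genes, beside 21.7% of all genes. These matches describe letters in a window, and binding was not measured.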

How the data were processed

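Single cells of the heart tube were picked by hand, and their amplified cDNA was transcribed into Cy3-labelled RNA for one-colour Agilent arrays. The study's methods state that the type of each cell was assigned by PCR of marker genes. The deposited values were intensity readings of the scanner software, Agilent Feature Extraction 12.0.2.2 per the file headers, already corrected for background, with the software's own flags.

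Control spots and spots flagged as outliers were left out, and the log2 signals of a probe's spots were averaged, which gave 55681 probes. As in the methods, each array was scaled on its 50th percentile and values under 50 were set to 50. The percentile was taken here over the 5301 probes well above background on all 8 arrays. The methods name the floor before the scaling, whereas here the scaling came first, and the effect of this order was not examined. The methods' median normalization per gene does not affect differences between cells and was not applied. A gene was read by its probe of highest mean signal. Detection was the flag for signal well above background, and a value can be detected and still lie at the floor. The scaling was tried on these arrays with changes of known size planted in bright probes detected in all 8 cells. That trial does not cover genes undetected in some cells, as each of the 10 was. The 5-fold rule was not applied in it. Genes were grouped by role in lists written by hand. All 10 genes were named, and of the other lists the genes past the 5-fold rule, at most 3 in each direction, or else the gene of largest difference. The genes of like pattern were the 5 with the highest Pearson r. The genes and lists were chosen with earlier results of these data known. Probe positions are mm9 as in the files, and promoter sequences are RefSeq's for GRCm38.p6. The software was Python 3.11.15, pandas 2.3.3, numpy 2.4.6, R 4.3.3 and limma 3.58.1. Alternatives covered scaling, background correction, floor, centre, probe choice, detection, size rule, flags and each cell left out.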

Additional observations from a re-analysis of the deposited data

Results flagged for a closer look

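Within a genotype, 21 sets of 4 values were examined for a single cell far from the other 3, and 5 were found. Chance gives about 1 in 20 for continuous values, a rate that does not hold for sets at the floor, where any value above it stands apart. KO cell 3 accounted for 3 of them: its Mcm3 signal of 76.4 and its Gins2 signal of 466.2, with the other 3 KO cells at the floor in both, and its mean log2 signal over the 10 genes of 9.42. Pcna was at 50 in KO cell 4, where the other KO cells were bright. Mcm5 read 149.4 in WT cell 2, below the other WT cells.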

How the results depend on the processing

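The number of genes at least 5-fold lower in KO was 2, and it was 4 with the median of cells in place of the mean, where Mcm2 and Mcm5 joined Mcm3 and Fen1. It was 6 with a 2-fold rule and 1 without Mcm3. Leaving out single cells gave 2 to 4, the highest without KO cell 3. The number 5-fold higher was 0 in all 23 alternatives. The median difference of -1.04 kept its sign in all 21 alternatives, with -2.12 when KO cell 3 and -0.66 when WT cell 3 was left out as its extremes, and the difference in detected genes ranged from -3.5 without KO cell 3 to -1.75 without Mcm3. Mcm3 stayed between -10.3 (no floor) and -6.41, and Fen1 between -9.00 (no floor) and -4.47. The sign turned under at least 1 alternative for Mcm2, Mcm4, Mcm6, Mcm7 and Pcna. The median of the 2264 genes detected in all 8 cells was 0.14 under the scaling used and 0 to 0.33 under the others. The requirement of detection in all 8 cells left 0 of the 10 genes and so gave no value. Leaving out Pcna and Mcm7, an alternative chosen after seeing the data, left the count at 2. No paired analysis was possible because a number shared by a WT and a KO cell stands for no known pair, and no result comes from a test.

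Each genotype was 1 sample of 4 cells on 1 slide. Absence of a transcript and its loss during amplification cannot be told apart in a single cell.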
